A study of Zea mays with 11 samples.

Results

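The maize gene o7 (opaque7, gene model GRMZM2G074759) was described across tissues and kernel stages, as 1 of the 39656 gene models in each deposited table. It was chosen by its identifier, after its high upstream CHH methylation level in whole seed had been seen. The whole-seed levels of o7, in every context and region, are therefore a description and carry no test. Cytosine methylation was measured by bisulfite sequencing, in which unmethylated cytosines are converted and methylated ones are not, in the inbred line Mo17. All plants grew in the field, and ears were selfed. Whole seed was taken at 3 and 5 days after pollination (2 libraries), hand-dissected endosperm at 7, 9, 10 and 11 days and again at 13, 15, 20 and 25 days (8 libraries), and the ear leaf, the control tissue, at 13 days (1 library). No stage has a replicate, so p-values measure the spread of single libraries about a straight line in day. Both whole-seed stages precede the earliest endosperm stage, and an effect of tissue and one of age cannot be told apart between them. The tables hold methylation and no expression, so the tissue labels were not checked against marker genes.

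In maize, opaque mutants have soft, floury kernels in place of hard, glassy ones, usually with altered amounts of zeins, the storage proteins of the endosperm. The product of o7 is an acyl-activating enzyme, a class that joins carboxylic acids to coenzyme A, and its loss gives an opaque kernel. Plants methylate cytosine in 3 sequence contexts. CG and CHG methylation (H is A, C or T) is copied at replication, while CHH methylation has to be set anew and, near maize genes, is largely placed by RNA-directed DNA methylation.

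Summed over the gene bodies and upstream regions with any methylated call, the recovered calls ran from 143230165 in the leaf to 223198933 in 11-day endosperm. Regions that overlap count a call more than once, and calls outside these regions are left out. At o7 the CHH level of the upstream region rested on 706 to 2184 calls in endosperm, 934 and 776 in seed, and 294 in leaf. Chloroplast genes, which are taken to be unmethylated, showed 0.669% to 1.02% CHH over the libraries, a level that incomplete conversion can give. Values of o7 near or below 1% lie within or below that range. In CHG the chloroplast level was 8.59% and 6.38% in seed and at most 2.72% elsewhere, and in CG it was 6.60% and 5.79% against at most 2.85%. Mitochondrial genes had no such rise. Their CHG level was 2.25% and 2.295% in seed, 1.71% to 2.05% in endosperm and 3.03% in leaf. In CG they had 1.76% and 1.80% in seed, 1.41% to 1.75% in endosperm and 2.48% in leaf. What part of the chloroplast rise enters the seed levels of o7 was not tested. Intervals are 95% Wilson intervals. They cover counting error alone: PCR copies of a molecule, with no molecular identifier named in the labels, may be counted more than once.

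In the deposited tables o7 lies on the minus strand of chromosome 10, from 148627784 to 148629933 (2150 bp), on a genome build not given in the sources used here. Upstream of it, the next gene model, GRMZM2G074754, runs the opposite way from 148633495 to 148636605, so that both genes share 3561 bp between their starts. GRMZM2G074718 follows on the plus strand from 148637234 to 148638741. On the other side, GRMZM2G074773 ends 15405 bp before o7.

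The width of the upstream region is not stated, and it was read from the tables. If 2 divergent genes lie exactly 1 window apart, their windows coincide and their counts match. Over 2746 divergent pairs, the difference of methylated CG counts, summed over libraries, had a median of 43.6% of both genes' counts for pairs under 200 bp apart. It was lowest, at 1.52%, for the 53 pairs 5000 to 5199 bp apart, and 23.3% at 5400 to 5599 bp. The upstream region was therefore taken as 5 kb, with edges known to about the 200 bp bin.

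**Figure D1:**
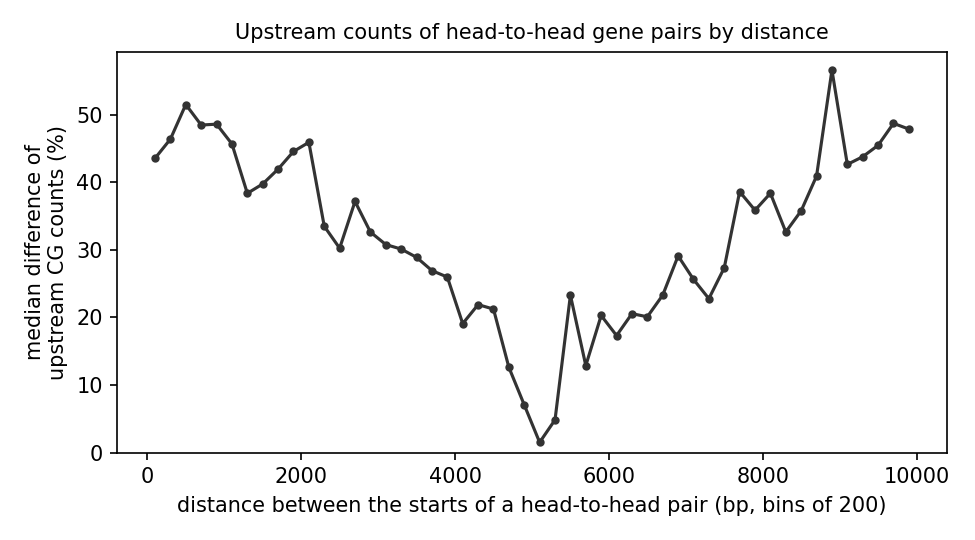
The median difference of upstream methylated CG counts within divergent gene pairs (percent of their summed counts over 11 libraries) is plotted against the distance between their starts in 200 bp bins. The curve has its minimum of 1.52% in the bin that starts at 5000 bp.

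On that width the upstream region of o7 spans 148629934 to 148634933. It holds the whole 3561 bp between both genes and the first 1439 bp of GRMZM2G074754. The window of GRMZM2G074754 holds the same 3561 bp and the first 1439 bp of o7. The window of GRMZM2G074718 reaches back to 148632234, and 1261 bp, from 148632234 to 148633494, lie in all 3 windows. An upstream value of o7 is thus also, in large part, an upstream value of its neighbours.

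**Figure D2:**
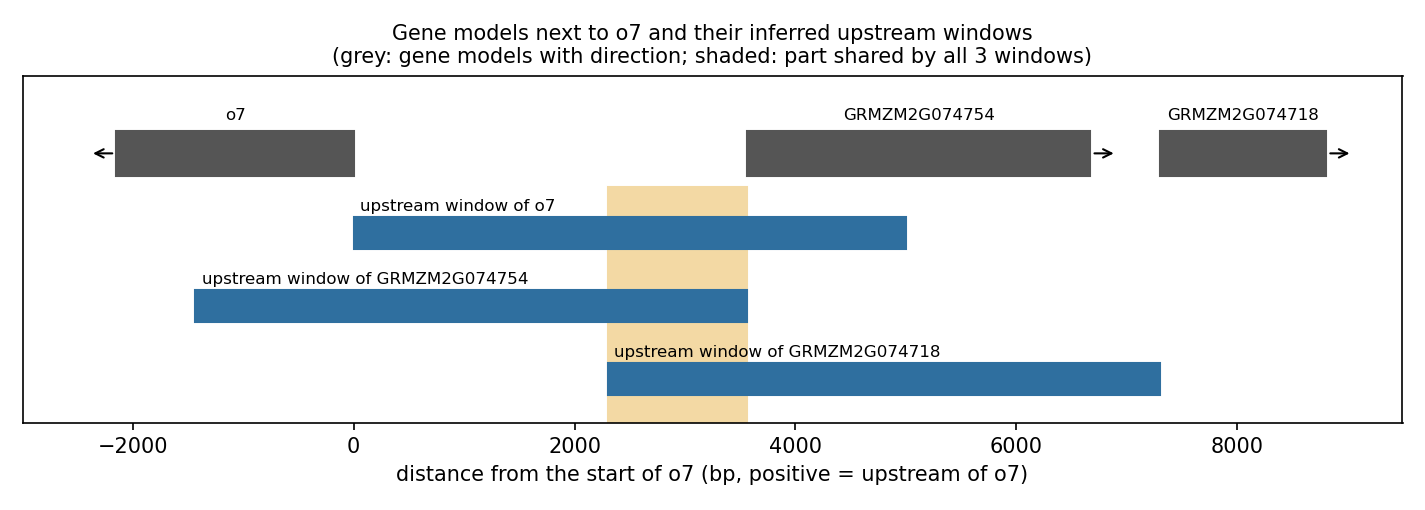
Gene models (grey, arrows give direction) and inferred 5 kb upstream windows (blue) are drawn against distance in bp from the start of o7. The shaded 1261 bp, 2301 to 3561 bp upstream of o7, lie in all 3 windows.

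Upstream CHH methylation of o7 was higher in both seed libraries than in every other library. The level was 8.24% (interval 6.65 to 10.2) in 3-day seed and 9.92% (8.01 to 12.2) in 5-day seed. In the 8 endosperm libraries it ran from 0.52% at 20 days through a median of 2.04% to 3.26% at 13 days, and in leaf it was 0.34% (0.0601 to 1.90). Seed and endosperm did not overlap. The seed mean of 9.08% ± 1.19 (SD, n = 2) was 4.90 times the endosperm mean of 1.85% ± 0.911 (SD, n = 8). Both seed libraries lay above all 8 endosperm libraries at 14.5% of the 37531 gene models compared; since o7 was chosen for its seed level, nothing is read from this. In the order of the 11 levels, the only neighbours whose intervals did not overlap were 3-day seed and 13-day endosperm.

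**Figure D3:**
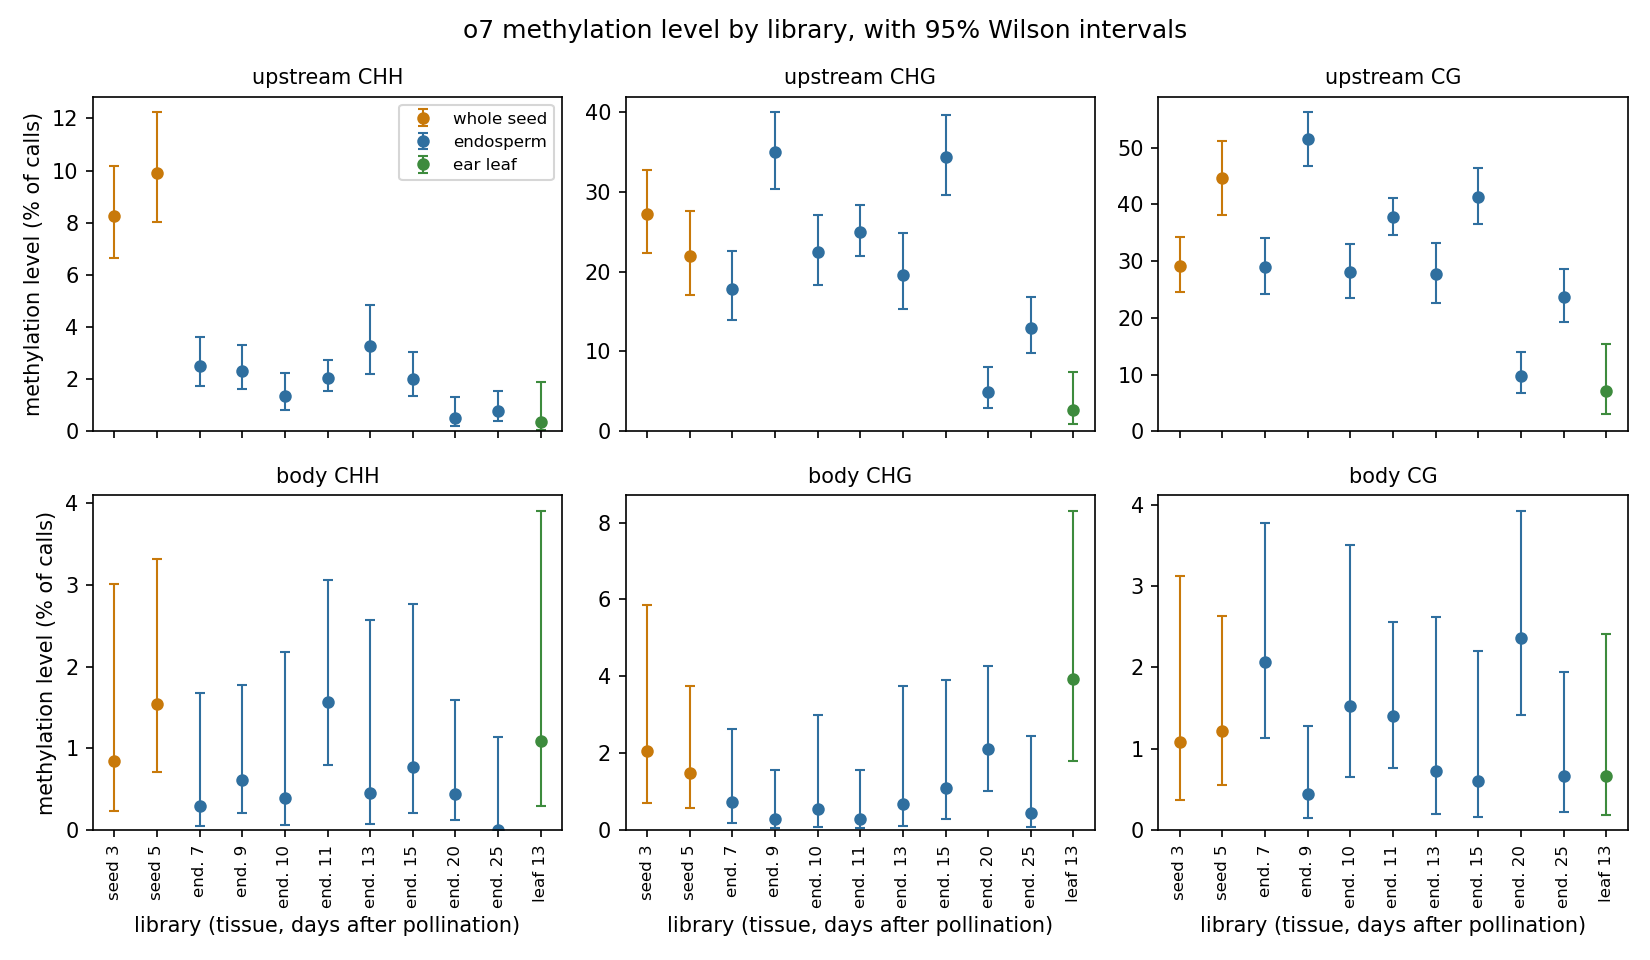
The methylation level of o7 (percent of calls) is shown for 11 libraries in 3 contexts, upstream (top row) and in the gene body (bottom row), with 95% Wilson intervals. Seed stands apart from endosperm in upstream CHH, while the upstream CHG and CG levels of seed lie inside the endosperm range and the leaf lies at the bottom.

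Among nuclear gene models, o7 moved from the upper part of the upstream CHH range in seed to the lower part in late endosperm and leaf. It stood at the 76.2 percentile in 3-day seed and the 87.3 percentile in 5-day seed. In endosperm its percentile ran from 6.32 at 20 days through a median of 36.2 to 59.7 at 13 days, and in leaf it was 3.599. The difference of 7.23 percentage points between the seed and endosperm means ranked 1725 from the highest among the 37531 gene models, whose median difference was 0.740.

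CHG and CG methylation upstream of o7 did not separate seed from endosperm. The CHG level was 27.2% in 3-day and 21.9% in 5-day seed, and in endosperm it ran from 4.90% at 20 days through a median of 21.0% to 34.96% at 9 days. The CG level was 29.15% in 3-day and 44.6% in 5-day seed, against 9.73% at 20 days, a median of 28.5% and 51.6% at 9 days in endosperm. In both contexts the seed values lay inside the endosperm range. Across gene models, both seed libraries were above all endosperm libraries at 31.9% in CHG and 7.3% in CG. The 2 seed libraries differed in CG by more than counting error, with intervals of 24.6 to 34.2 and 38.2 to 51.2. These are low levels for an upstream region. The median gene model had 48.0% to 66.35% CHG and 65.5% to 75.3% CG, and o7 stood at most at the 34.8 percentile in either context over the 11 libraries.

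The composition of the methylated calls does not use the number of unmethylated calls as a denominator. Unconverted cytosines, counted as methylated, still enter it. At 20 and 25 days the 4 and 8 methylated CHH calls of o7 gave levels of 0.52% and 0.79%. Chloroplast genes had 0.697% and 0.727% in those libraries. Of the methylated calls upstream of o7, 30.4% (interval 25.1 to 36.4) were CHH in 3-day seed and 33.9% (28.1 to 40.3) in 5-day seed. In endosperm this CHH share ran from 6.35% at 25 days through a median of 8.10% to 15.4% at 7 days, and neither seed interval overlapped any endosperm interval. In leaf, 1 of 9 methylated calls was CHH. Over all nuclear gene models the CHH share was 13.6% and 12.0% in seed and 9.28% to 13.8% in endosperm. Among gene models with at least 40 methylated upstream calls, the share of o7 stood at the 85.0 and 90.4 percentile in seed. In endosperm it stood between the 30.2 and 75.5 percentile. How many gene models have seed and endosperm intervals apart in this share was not counted. Like the level itself, this share comes from the contrast for which o7 was picked.

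**Figure D4:**
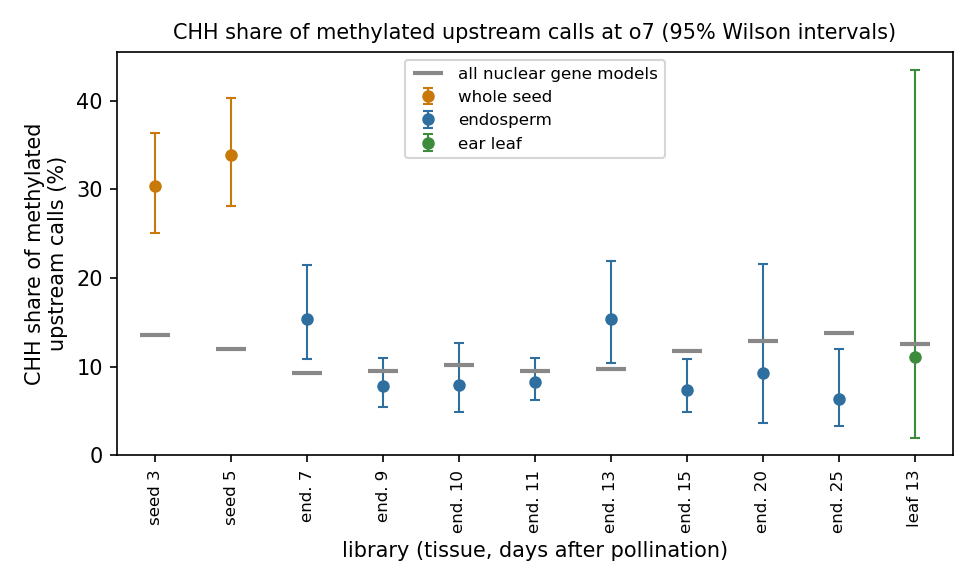
The share of CHH among methylated upstream calls of o7 (percent, with 95% Wilson intervals) is shown by library, with the share over all nuclear gene models as grey bars. The seed libraries are at 30.4% and 33.9%, and the highest endosperm library is at 15.4%.

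The leaf, which the choice of o7 did not use, had the lowest upstream level of all 11 libraries in each context. Its interval overlapped that of the next higher library, 20-day endosperm, in all 3 contexts. At 20 days the intervals were 0.203% to 1.33% in CHH, 2.94% to 8.05% in CHG and 6.68% to 13.97% in CG. Chloroplast genes in leaf had 0.669% CHH, 2.405% CHG and 2.26% CG. Against endosperm of the same age, 13 days, CHH was 0.34% (0.0601 to 1.90) in leaf and 3.26% (2.18 to 4.84) in endosperm. CHG was 2.63% (0.899 to 7.45) against 19.6% (15.3 to 24.9), and CG was 7.04% (3.05 to 15.5) against 27.6% (22.7 to 33.2). The intervals of these 2 libraries did not overlap in any context, although the leaf values rest on 294, 114 and 71 calls and a single library gives no replicate check. The share of gene models whose leaf and 13-day endosperm intervals lie apart was not counted. Over all gene models, a leaf below all 8 endosperm libraries was found at 6.47% of gene models in upstream CHH, 3.4% in CHG and 6% in CG.

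The median gene model went the other way. The leaf level of o7 lay 18.9 percentage points under its endosperm mean in upstream CHG, whereas the median gene model lay 9.96 above, which placed o7 at the 0.887 percentile. In CG the leaf was 24.0 points under the endosperm mean of o7 and 3.57 above it at the median gene model, with o7 at the 1.07 percentile. In CHH the difference was 1.51 points under, against 0.360 above, and o7 stood at the 13.8 percentile.

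Within endosperm the 20- and 25-day libraries held the lowest upstream levels of o7 in all 3 contexts. At 20 days, 14 of 286 CHG calls and 25 of 257 CG calls were methylated. Their intervals of 2.94% to 8.05% and 6.68% to 13.97% did not reach those of any other endosperm library. In how many gene models the 20-day interval lies apart in this way was not counted, so nothing is read from this lack of overlap. At 25 days CHG was 12.9% and CG 23.6%. From 7 to 15 days CHG lay between 17.8% and 34.96% without an order in day, with the 9- and 15-day libraries high and the 7-, 10- and 13-day libraries low in both CHG and CG.

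A straight line in day did not pass the test in any of the 6 measures. Upstream CHH changed by -1.84 percentage points over 18 days (SE 0.894, limma adjusted p = 0.373), CHG by -16.4 (SE 9.28, limma adjusted p = 0.540) and CG by -20.4 (SE 11.3, limma adjusted p = 0.858). Over all gene models 1.85% passed in upstream CHH, 1.84% upwards and 0.00533% downwards, and the median change was 0.579 points. That background of 693 gene models became 0 when the 25-day library was left out. It became 70 on leaving out 10 days, 141 for 9 days, 206 for 11 days, 328 for 7 days and 435 for 20 days. Without 13 days it was 578, and without 15 days it rose to 765. In upstream CHG and CG limma called 0 gene models, with 4060 and 2017 at an unadjusted p under 0.05, and the quasi-binomial model also called 0. The median change was -4.71 in CHG and 1.59 in CG.

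Pearson's r of the o7 level with day was -0.682 in upstream CHH (exact permutation p = 0.0619, two-sided, adjusted over 6 relations p = 0.336), with Spearman's rho -0.643 (exact permutation p = 0.0962, adjusted p = 0.397). In CHG r was -0.543 (exact permutation p = 0.166, adjusted p = 0.336) and rho -0.452 (exact permutation p = 0.268, adjusted p = 0.535). In CG r was -0.546 (exact permutation p = 0.168, adjusted p = 0.336) and rho -0.595 (exact permutation p = 0.132, adjusted p = 0.397). Without the 20- and 25-day libraries r was 0.101, 0.369 and 0.0713, so the negative sign rests on those libraries.

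The gene body of o7 carried almost no methylation in any tissue. In endosperm the body CG level ran from 0.44% through a median of 1.065% to 2.36%, and it was 1.08% and 1.22% in seed and 0.67% in leaf. Body CHG was 2.05% and 1.48% in seed, 0.28% to 2.10% in endosperm and 3.92% (6 of 153 calls, interval 1.81 to 8.29) in leaf, above all endosperm libraries. The share of gene models with a leaf above all endosperm libraries was not counted. In body CHG the leaf lay 3.15 points above the endosperm mean at o7 and 0.441 above at the median gene model, with o7 at the 69.3 percentile. Body CHH was 0.84% and 1.54% in seed, at most 1.57% in endosperm and 1.09% in leaf, and the 25-day library had 0 of about 333 calls, which allows up to 0.901%. All neighbours in the order of body levels had overlapping intervals. Over all gene models, both seed libraries were above all endosperm libraries at 12.2% in body CHH, 15.9% in CHG and 7.65% in CG, and the leaf was below all of them at 8.67%, 9.42% and 8.58%. The lines in day gave limma adjusted p of 0.833 for CHH, 0.899 for CHG and 0.991 for CG, where 0.0277%, 0% and 0% of gene models passed (2499, 2363 and 1630 at an unadjusted p under 0.05; 60, 0 and 0 passed by the quasi-binomial model). Exact permutation p of r with day was at least 0.334 in the body, and of rho at least 0.484.

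The counts of methylated calls upstream of o7 and upstream of the divergent GRMZM2G074754 were close in most libraries. In CHG there were 76 and 77 calls in 3-day seed, 51 and 50 in 5-day seed, and 3 and 5 in leaf, and over all libraries the counts differed by at most 8. In CG they differed by at most 9, with 25 against 34 calls in 20-day endosperm, and in CHH by at most 6, with 15 against 9 calls in 10-day endosperm, which are large shares of those counts. Summed over the 11 libraries there were 1263 and 1284 CG calls and 328 and 312 CHH calls. Both windows hold the same 3561 bp, but the tables place no single call. On 5 kb windows, the rest of each window lies in the body of the other gene. Over the 8 endosperm libraries the body of GRMZM2G074754 held 23 methylated CG calls, against 1059 upstream of o7. The body of o7 held 49, against 1076 upstream of GRMZM2G074754. Most methylated CG calls of both windows would then lie in the shared 3561 bp. In CHH the bound is looser, with 62 against 173 and 18 against 158 calls. In seed GRMZM2G074754 had 10.6% and 13.8% CHH, against 8.24% and 9.92% for o7. Its seed CG levels were 22.05% and 22.9%, against 29.15% and 44.6% for o7.

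**Figure D5:**
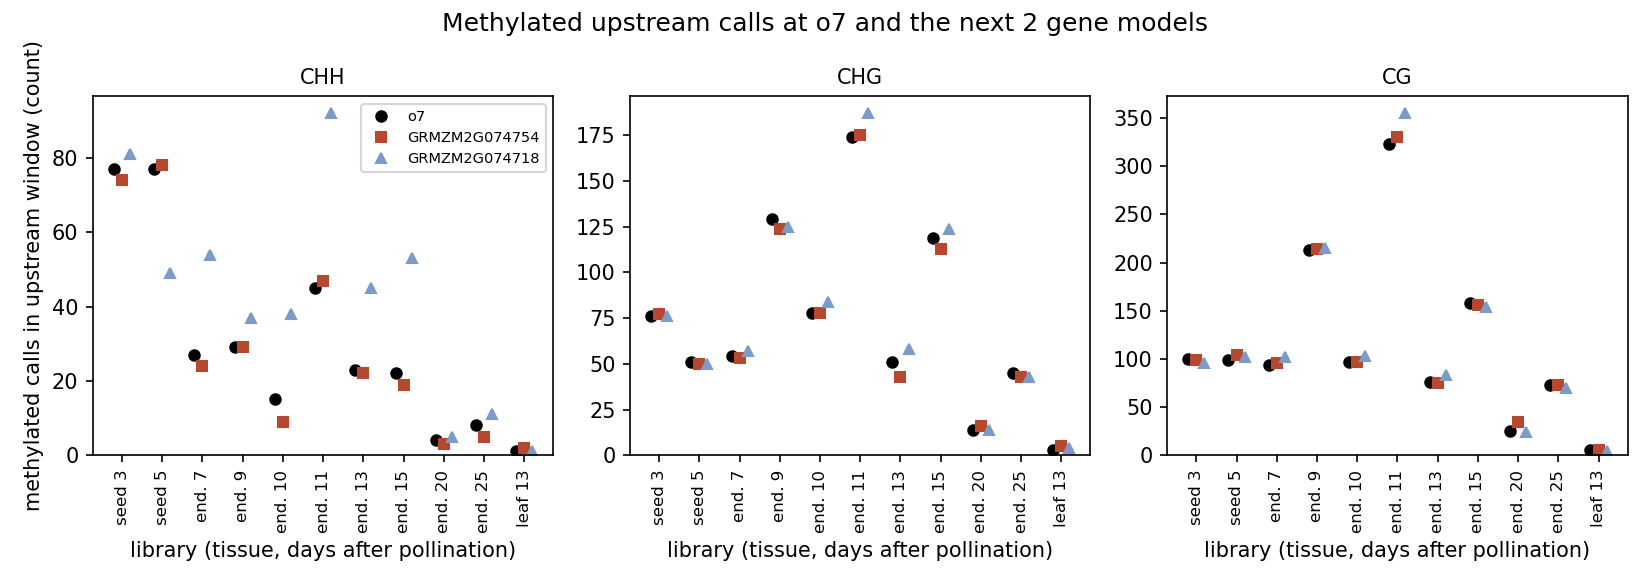
Counts of methylated calls in the upstream windows of o7 (black circles), GRMZM2G074754 (red squares) and GRMZM2G074718 (blue triangles) are plotted by library in each context. The symbols of o7 and GRMZM2G074754 lie within 9 calls of each other throughout, while GRMZM2G074718 stands apart in CHH in 5-day seed and in 5 of 8 endosperm libraries.

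GRMZM2G074718 matched o7 in CHG and CG but not in CHH. Its CHG count lay within 8 calls of that of o7 in 10 of 11 libraries, the exception being 187 against 174 calls in 11-day endosperm. In CG it was within 8 calls in 10 of 11, with 355 against 323 in the same library. The part of the o7 window that GRMZM2G074718 lacks is the 2300 bp next to the start of o7. In 3-day seed the CHH counts were 77 for o7 and 81 for GRMZM2G074718. In 5-day seed they were 77 and 49, so at least 28 of the methylated CHH calls of o7 fell in the 2300 bp next to its start, if the window is 5 kb. In 11-day endosperm GRMZM2G074718 had 92 CHH calls and o7 had 45, which places at least 47 outside the o7 window.

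The gene models on the far side of o7 had another pattern. Upstream of GRMZM2G074773, CHG was highest in leaf, at 55.7%, with 17.65% and 24.1% in seed and 11.1% to 44.4% in endosperm. Its upstream CHH level was 2.82% and 11.6% in seed and 1.92% to 14.5% in endosperm, so seed and endosperm overlapped. The next model, GRMZM2G074787, had 3.31% and 8.82% CHH in seed and 1.12% to 10.9% in endosperm, and GRMZM2G093623 had at most 1.44% in seed and endosperm. Beyond GRMZM2G074718, GRMZM2G074107 had 5.65% and 5.75% in seed, 1.05% to 6.26% in endosperm and 4.65% in leaf.

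Most other genes of kernel hardness had no seed excess in upstream CHH. The list held 13 further gene models of opaque, floury and related genes, of which 12 had enough calls. Of these, 4 had a higher upstream CHH mean in seed than in endosperm, as did 71.7% of all gene models. In 1 of the 12 both seed libraries lay above all endosperm libraries, against 14.5% of all gene models, and the median difference was -0.319 percentage points, against 0.740 over all gene models. The largest differences were 6.83 points at fl1 (GRMZM2G094532, a membrane protein of the protein body), 3.80 at nkd1 (GRMZM2G129261, a transcription factor of the aleurone) and 1.89 at o2 (GRMZM2G015534, an activator of zein genes). At nkd1 the seed levels were 2.37% and 15.03%, against an endosperm mean of 4.90% ± 5.65 (SD, n = 8). At o2 they were 2.20% and 6.13%, against 2.28% ± 1.33 (SD, n = 8). In both genes 1 seed library lay below the endosperm mean, so the sign of the difference rests on the other. The next was 1.11 at pbf1 (GRMZM2G146283, a factor that binds the prolamin box), with 2.38% and 2.44% in seed and 0.68% to 1.87% in endosperm. That gene model was the 1 with both seed libraries above all endosperm libraries. A second gene model with the pbf1 symbol, GRMZM2G146267, went the other way without overlap, at 5.95% and 6.10% in seed and 7.43% to 12.3% in endosperm. The share of all gene models with both seed libraries below all endosperm libraries was not counted. Nothing is therefore read from the lack of overlap at this gene model or at fl3 below.

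At fl1 the CHH level was 21.9% and 25.4% in seed, 12.25% to 22.2% in endosperm and 22.8% in leaf, so its leaf was high where that of o7 was low. In contrast, fl3 (GRMZM2G006585) was at 2.66% and 3.29% in seed and 7.55% to 17.65% in endosperm. The o2-related ohp1 had no value in 3 libraries and was left out. In the line over day, 8 of 12 listed genes had a change above 0 and 4 below, where 62.0% of all gene models had one above 0, and the median was 1.55 points. By limma 0 passed in either direction, and 0 passed by the quasi-binomial model. An unadjusted p under 0.05 was found for 3 of the 12 and for 16.1% of all gene models. In upstream CHG, 10 of 11 had a higher mean in seed, as did 86.4% of all gene models, with a median difference of 13.1 points against 8.67 over all gene models and 3.06 at o7. The difference at o7 was 0.386 points without the 3-day seed, 0.689 without the 20-day and 1.84 without the 25-day endosperm, 4.98 without the 9-day and 4.90 without the 15-day endosperm, and 5.74 without the 5-day seed. It was -1.825 against the 7- and 9-day endosperm alone, and -8.57 with each library's median subtracted.

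Of 20410 gene models whose upstream CHH level ranged over at least 5 percentage points, GRMZM2G074754 followed o7 most closely over the 11 libraries (Pearson r = 0.993), and it shares most of its window with o7. The next were GRMZM2G179633 on chromosome 5 (r = 0.974), GRMZM2G429057 on chromosome 8 (r = 0.967), GRMZM2G072890 on chromosome 3 (r = 0.963) and GRMZM2G026135 on chromosome 1 (r = 0.953). At GRMZM2G179633 the CHH level was 8.33% and 11.2% in seed, 0.84% to 2.61% in endosperm and 0.32% in leaf. Among models with a gene symbol the highest were dhar3 (r = 0.922), COAC1 (r = 0.898) and pht7 (r = 0.830). The 2 seed libraries are the high points in each of these, and the libraries and their depths are shared by all gene models, so r is given as a description. GRMZM2G074718 ranked 615 (r = 0.781).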

How the data were processed

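The submitters' processing notes name cutadapt, Bismark and Bowtie2. Versions, genome build and upstream width were not given in the sources used here. Per the file headers, the authors deposited for each gene model a count of methylated calls and a level in percent, per context and region. Total calls were recovered as the count divided by the level. A level has 2 decimals, so totals behind 1 to 3 methylated calls are known only to a few percent. A whole total fitted for 100.0% of the 800474 values where the rounding spans under 0.1 call. For a count of 0 the total was estimated from the calls in both other contexts.

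Members, lists and tests were chosen with earlier results of these data known. Levels of all nuclear gene models with at least 10 calls in each library (in CG and CHG also a mean level from 1% up) were fitted with limma 3.58.1 in R 4.3.3 against day in the 8 endosperm libraries, with Benjamini-Hochberg adjustment over all gene models at 0.05. Changes are over 18 days. Correlations were tested over all 40320 pairings in Python 3.11.15 (numpy 2.4.6, pandas 2.3.3, scipy 1.17.1; figures in matplotlib 3.10.9). The fits were tested on simulated data. The planted changes were larger than those of o7 and lay at gene models with higher mean levels. Whether the fits would find changes of the size seen at o7 was not tested. Alternatives were other filters, scales, moderation, a quasi-binomial model and each library left out. The rule for named genes took o7, 3 neighbours on either side, up to 4 listed genes with the largest seed minus endosperm difference in upstream CHH (fl3 and the other pbf1 model were added after their values were seen), and the 5 gene models (and 3 with a symbol) with the highest r. Names came from a RefSeq gene table of assembly Zm-B73-REFERENCE-NAM-5.0, used for names only, which matched 18774 gene models and 13 of 20 listed symbols.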

Additional observations from a re-analysis of the deposited data

Results flagged for a closer look

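The body CHG level of o7 in 20-day endosperm was 2.10% (7 of 333 calls, 95% Wilson interval 1.02 to 4.28), set apart from the other 7 endosperm libraries, which lay between 0.28% and 1.10%. Its gap to the next library was 0.549 of the group's range, above Dixon's 95% critical value for 8 samples. Such a gap is found by chance in about 1 in 20 groups, 6 measures were examined, and the interval overlaps those of the other libraries. The same library had the highest body CG level, 2.36%, and the lowest upstream level of the 8 endosperm libraries in all 3 contexts.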

How the results depend on the processing

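The trends of o7 with day stayed outside the threshold under every alternative run: 5 or 20 calls as the minimum, no filter on the mean level, the arcsine scale, trended and robust moderation, the quasi-binomial model, subtraction of library medians, and each endosperm library left out. Of 88 such values 84 kept their sign. The 4 that did not were all body CG, whose change of -0.217 percentage points became 0.0418 (log odds) in the quasi-binomial model and 0.828 with library medians subtracted, and ran from -0.949 to 0.642 with 1 library left out. With 1 endosperm library left out, the change ran from -2.12 to -1.42 in upstream CHH (limma adjusted p 0.308 to 0.642), from -23.1 to -9.82 in upstream CHG and from -31.2 to -11.8 in upstream CG. For upstream CHH the unadjusted limma p was 0.0747 in the main fit. It was 0.0407 on the arcsine scale, 0.0471 with trended and robust moderation and 0.0462 with library medians subtracted. Without the 10- or 13-day library it was 0.0478 or 0.0479. The other limma fits gave 0.0743 to 0.202. For upstream CHG the unadjusted limma p was 0.113 in the main fit and 0.0466 without 7 days. The number of gene models called in upstream CHH was 693, against 0 with trended and robust moderation, 33 on the arcsine scale, 459 with library medians subtracted, 1521 in the quasi-binomial model and 0 to 765 with 1 library left out. In body CHH it was 9, against 60 in the quasi-binomial model, 16 with medians subtracted, 0 on the arcsine scale and with trended and robust moderation, and 0 to 6 with 1 library left out; the causes were not tested. Ranked by Spearman's rho, 1 of the 5 gene models most like o7 was shared. The difference of seed from endosperm in upstream CHH was 6.39 to 8.07 points with 1 seed library left out. That in upstream CG was 5.79 with both and ran from -1.93 to 13.5. Subtracting library medians moved the difference to 6.20 in upstream CHH, to -8.57 in upstream CHG (3.06 before) and to -2.47 in body CG (-0.0750 before), because the median gene model is higher in seed. Against the 7- and 9-day endosperm alone it was 6.68 in upstream CHH, -1.825 in upstream CHG and -3.375 in upstream CG. No paired analysis was possible because the labels give no replicate numbers and each stage has 1 library. In the body, 0 to 14 methylated calls limit every value.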
